A study of Rattus norvegicus with 16 samples.

Results

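Metabotropic glutamate receptors are G protein-coupled receptors through which glutamate adjusts the strength of synapses, beside the ion channel receptors that carry the fast signal. The 6 genes described here are Grm5 of group I, Grm2 and Grm3 of group II, and Grm4, Grm7 and Grm8 of group III. They were taken by gene symbol from the 2 deposited expression tables, with the row of the highest mean standing for a symbol. All 6 have a row in both tables, which hold 16405 different gene symbols for the hippocampus and 16395 for the blood.

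Group I receptors sit mainly on the postsynaptic side, couple through Gq to phospholipase C, release calcium from internal stores and drive a form of long-term depression as well as the release of endocannabinoids. Group II and group III receptors couple through Gi/o, lower cyclic AMP and in many neurons restrain transmitter release from the presynaptic terminal. Grm3 is also a receptor of astrocytes, and Grm7 is a presynaptic receptor with low affinity for glutamate.

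The animals were male Sprague-Dawley rats, with no age in the labels. One group had a fluid percussion injury, a model of traumatic brain injury (TBI), and the other had sham surgery alone. After 1 week both took a learning test, and tissue was collected after it. Poly-A RNA was sequenced from the dissected CA1 field of the hippocampus and from white blood cells (WBC), with 4 sham and 4 TBI libraries from each tissue, 16 in all. The labels do not say whether tissue was pooled, nor whether equal replicate numbers in CA1 and WBC are the same rat, so the p-values measure the spread between these libraries.

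Values are FPKM, fragment counts scaled for transcript length and sequencing depth, so levels of different genes can be set side by side, but the depth itself is unknown. The FPKM of a library summed to 1726800 to 3520700 in CA1, with 69.0% to 82.8% in the 10 highest rows. In WBC the sum was 482290 to 832720, with 18.6% to 35.8% in those rows. This limits how far levels can be compared between libraries and between tissues. On the first principal component of the CA1 libraries, which carried 22.9% of the variance, sham 1 (-27.4) and TBI 1 (-28.4) lay apart from the other 6 (1.77 to 19.4). On that of the WBC libraries (31.1%), TBI 1 lay at 57.0 and the others at -32.9 to 19.1. The excitatory markers Camk2a (1239 to 1935 FPKM), Nrgn (1152 to 1516) and Wfs1 (74.2 to 127) were present in every CA1 library, while the CA1 marker Fibcd1 was listed at 0 in all 8. Markers of the dentate gyrus were also present, with Prox1 at 9.37 to 18.5 FPKM and C1ql2 at 62.4 to 151. Transthyretin (Ttr), from the neighbouring choroid plexus, ran from 3.42 FPKM in sham 1 to 2694 in TBI 1. The WBC libraries held leukocyte transcripts (Cd3g 183 to 313 FPKM, Cd79b 210.0 to 445, S100a9 209 to 742) together with those of red cells (Alas2 3201 to 12172) and platelets (Pf4 1750 to 7300.3).

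All 6 receptor genes were measured in every CA1 library, and their levels spanned a range from about 1 to 40 FPKM. Grm5 was the highest, at 34.9 ± 3.75 FPKM (SD over the 8 libraries), followed by Grm7 at 27.7 ± 1.87 and Grm3 at 18.3 ± 2.10. Grm2 stood at 7.93 ± 2.36 FPKM, Grm4 at 6.01 ± 1.71 and Grm8 at 1.74 ± 0.586. Against all rows tested in CA1, the mean of Grm5 lay at the percentile 81.3, that of Grm7 at 77.0 and that of Grm8 at 10.1.

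The order of neighbouring genes was fixed for some and not for others. Grm5 was above Grm7 in 8 of 8 libraries, although its lowest library (29.0 FPKM) lay below the highest of Grm7 (29.8). Grm7 was above Grm3 with no overlap (lowest 24.6 against highest 21.4), and Grm3 was above Grm2 with no overlap (14.6 against 11.1). Grm2 and Grm4 did not differ beyond their spread: Grm2 was higher in 6 of 8 libraries, with a ratio within a library of 0.720 to 2.49. Grm4 was above Grm8 in 8 of 8, by a ratio of 2.46 to 7.89. In CA1 the symbol Grm7 has another row, at 0.739 to 1.03 FPKM, which lies under the filter of 1 FPKM and was not used.

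**Figure D1:**
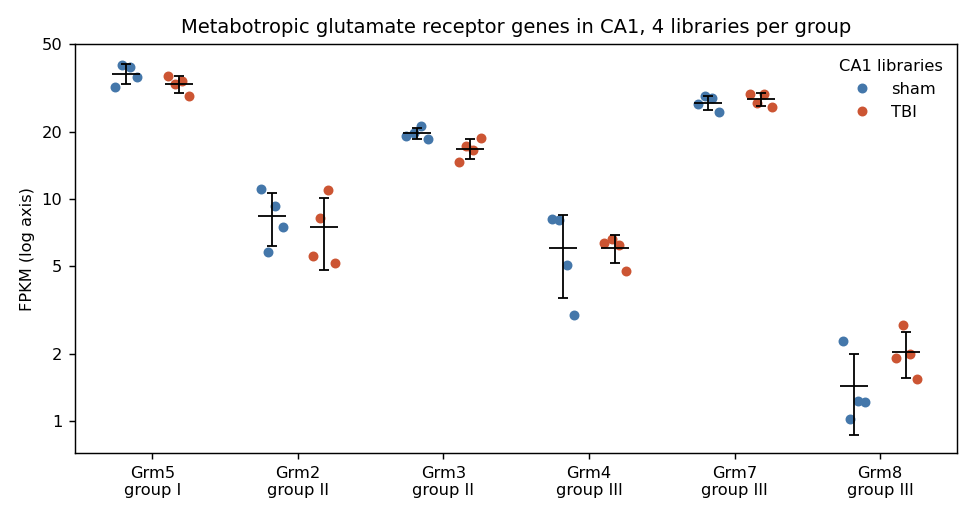
FPKM (log axis) of the 6 receptor genes in the CA1 libraries of sham (blue) and TBI (red) rats; each point is a library, and the black bar with whiskers is the mean ± SD of 4 libraries. Grm5, Grm7 and Grm3 lie above Grm2 and Grm4 in every library, and Grm8 lies lowest, with sham 1 (2.28) far above the other sham libraries.

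The comparison of TBI with sham in CA1 asks whether these receptors' transcripts differ 1 week after injury. None of the 6 passed limma's moderated test on log2(FPKM + 0.5), adjusted over 14637 rows at a threshold of 0.05 (adjusted p = 0.891 to 0.975), where 0.00683% of all rows passed. Before adjustment 1 of the 6, Grm3, was under 0.05, lower in TBI, as were 5.14% of all rows (2.6% lower and 2.54% higher). Sham and TBI libraries overlapped in each of the 6 genes, while 2.88% of all rows did not overlap (1.6% lower and 1.28% higher). The mean log2 levels of 3 receptor genes were lower in TBI and those of 3 higher, where 53.3% of all rows were lower and 46.7% higher. Their median log2 difference was -0.05, against -0.01 over all rows. In whole tissue, fewer cells of a type and less RNA per cell cannot be told apart.

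Grm5 is the postsynaptic group I receptor that binds Homer scaffolds. In the sham libraries 1 to 4 it stood at 31.9, 40.2, 39.5 and 35.5 FPKM, and in the TBI libraries at 35.8, 33.0, 34.1 and 29.0. TBI 1, 2 and 3 lay within the sham range, and TBI 4 lay below every sham library. The means were 36.8 ± 3.86 and 33.0 ± 2.90 FPKM (SD, n = 4), a log2 difference of -0.15 ± 0.09 (SE; 95% interval -0.36 to 0.06; limma adjusted p = 0.891). Without sham 1 and TBI 1, the libraries that stand apart, it was -0.26 (limma adjusted p = 0.30), under 0.05 before adjustment. In that fit 1999 of 14637 rows were under 0.05, against 752 with every library. Markers of pyramidal neurons, which express Grm5, were lower in 10 of 11 tested with a median of -0.18, where 53.3% of all rows were lower. Their summed level was 4018 to 4820.3 FPKM in sham and 3700.5 to 4178 in TBI. Of that list only Fibcd1 was listed at 0, and the part of these markers in the Grm5 difference was not tested.

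Grm3, the group II receptor of neurons and astrocytes, ranked first of the 6 in the test, and 320 of 14637 among all rows. It stood at 19.2, 19.9, 21.4 and 18.6 FPKM in sham 1 to 4 and at 14.6, 17.3, 16.6 and 18.9 in TBI 1 to 4. The TBI libraries 1, 2 and 3 lay below every sham library, and TBI 4 lay between sham 4 and sham 1. The means were 19.8 ± 1.20 and 16.9 ± 1.76 FPKM (SD, n = 4). The log2 difference was -0.23 ± 0.08 (SE; 95% interval -0.42 to -0.04), a ratio of 0.853, with a limma adjusted p = 0.891. Without sham 1 and TBI 1 it was -0.18 (adjusted p = 0.371) and no longer under 0.05 before adjustment. Astrocyte markers, of which S100b and Glul had the highest levels, were lower in 7 of 11 with a median of -0.03, where 53.3% of all rows were lower. Their summed level was 3345 to 4486 FPKM in sham and 3296 to 4053.5 in TBI, with none listed at 0 in every library. The water channel Aqp4 was the astrocyte marker with the smallest p (124 ± 7.56 and 96.0 ± 16.1 FPKM). The part of astrocyte transcripts in the Grm3 difference was not tested.

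Grm2, the other group II receptor, is mainly presynaptic and is high in dentate granule cells. Its libraries stood at 11.1, 5.76, 9.28 and 7.49 FPKM in sham and at 5.54, 8.21, 10.9 and 5.16 in TBI. High and low libraries occurred in both groups. The log2 difference was -0.18 ± 0.26 (SE; limma adjusted p = 0.924), with a 95% interval of -0.78 to 0.41. Without sham 1 and TBI 1 the sign turned, to 0.07 (adjusted p = 0.928).

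Grm8, a presynaptic group III receptor, was the lowest in level and had the largest difference in size. It stood at 2.28, 1.01, 1.22 and 1.22 FPKM in sham and at 1.92, 2.70, 1.99 and 1.54 in TBI. Sham 1 lay within the TBI range, and the other 3 sham libraries lay below all 4 TBI libraries. The means were 1.43 ± 0.570 and 2.04 ± 0.482 FPKM (SD, n = 4), with a log2 difference of 0.41 ± 0.21 (SE; 95% interval -0.07 to 0.90; limma adjusted p = 0.891). Without sham 1, its highest sham library, the difference was 0.60 (limma adjusted p = 0.294). Without sham 1 and TBI 1 it was 0.62 (adjusted p = 0.277), and both were under 0.05 before adjustment. Of 14637 rows, 1802 and 1999 were under 0.05 in those fits, against 752 with every library.

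Grm4 and Grm7, the other group III receptors, had means close to each other in sham and TBI. Grm7 stood at 26.8, 29.1, 28.4 and 24.6 FPKM in sham and at 29.6, 27.1, 29.8 and 26.0 in TBI, with a coefficient of variation of 7.39% and 6.70%. Its log2 difference was 0.05 ± 0.07 (SE; limma adjusted p = 0.930), with a 95% interval of -0.12 to 0.21, that is a ratio between 0.922 and 1.16. Grm4 stood at 8.10, 8.0, 5.03 and 3.01 FPKM in sham and at 6.36, 6.63, 6.22 and 4.71 in TBI. The sham libraries of Grm4 spread on both sides of the TBI libraries, with a coefficient of variation of 41.0% against 14.4%. Its means were 6.03 ± 2.47 and 5.98 ± 0.863 FPKM (SD, n = 4), and its difference on the log2 scale had the other sign, 0.07 ± 0.28 (SE; limma adjusted p = 0.975), and without sham 4 it was -0.20.

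**Figure D2:**
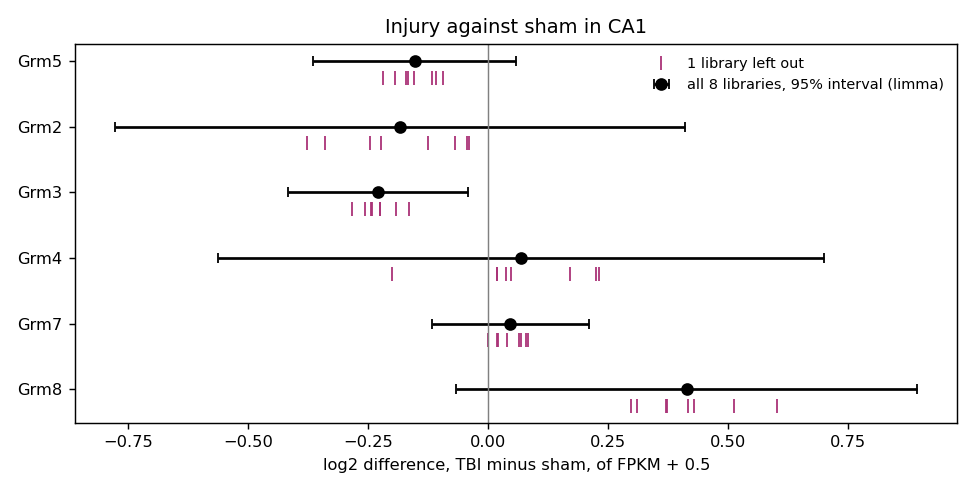
Log2 difference (TBI minus sham, FPKM + 0.5) of each receptor gene in CA1: black points with whiskers are limma estimates with 95% intervals from 8 libraries, and the purple ticks below each are the estimates with 1 library left out. The interval of Grm3 (-0.42 to -0.04) lies below 0, the other 5 include 0, and the ticks of Grm4 and Grm7 lie on both sides of 0.

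Summed by class, group I (Grm5 alone) made up 36.9% ± 3.30 (SD, n = 4) of the FPKM of the 6 genes in sham and 35.3% ± 1.94 in TBI. Group II made up 28.3% ± 2.52 and 26.1% ± 3.09, and group III 34.7% ± 2.71 and 38.7% ± 1.15. The sum of the 6 was 99.6 ± 6.61 FPKM in sham and 93.4 ± 6.0 in TBI.

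The receptor genes were also set against each other and against the marker scores of 5 cell types over the 8 CA1 libraries, 45 relations in all. A score is the mean log2 deviation of a list's tested markers from their mean over the libraries. None passed an exact permutation test after Benjamini-Hochberg adjustment (smallest adjusted p = 0.454 for Pearson's r and 0.647 for Spearman's rho). Before adjustment 2 of 45 were under 0.05 by Pearson's r, and 2 by Spearman's rho. Among the 15 pairs of receptor genes r ran from -0.58 (Grm5 with Grm8) to 0.64 (Grm4 with Grm7). The latter rested on sham 4 and TBI 4, without which r was -0.30, and without sham 2 and TBI 4 that of Grm5 with Grm8 was -0.81.

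Grm8 and the score of inhibitory neurons varied in the same direction over the 8 libraries (r = 0.73, exact permutation p = 0.0378, adjusted p = 0.454; rho = 0.81, exact permutation p = 0.0218, adjusted p = 0.647). Sham 1, the highest sham library of Grm8, had the highest inhibitory score (0.28), and sham 2, the lowest of Grm8, had the lowest (-0.19). After subtraction of the group means r was 0.95, and without sham 1 and sham 2, the libraries farthest from the median score, it was 0.59. Between the groups, inhibitory markers, with Cck and Sst highest in level, were higher in TBI in 8 of 13 tested (median 0.04), where 46.7% of all rows were higher. Their summed level was 799.7 to 1224 FPKM in sham and 943 to 1058 in TBI. The glutamate decarboxylases Gad1 (93.8 ± 7.56 and 82.7 ± 4.81 FPKM) and Gad2 (50.4 ± 6.58 and 40.0 ± 6.70) were lower. None of the list was listed at 0 in every library, but Npy, at 0 to 0.505 FPKM, was too low to be tested. The part of these markers in the Grm8 difference was not tested.

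Grm4 and the astrocyte score varied in opposite directions (r = -0.78, exact permutation p = 0.0204, adjusted p = 0.454; rho = -0.71, exact permutation p = 0.0576, adjusted p = 0.647). Sham 4, the lowest library of Grm4 at 3.01 FPKM, had the highest astrocyte score (0.19). Without sham 4 and TBI 1 r was -0.77, and after subtraction of the group means -0.81. Grm5 with the pyramidal neuron score had r = 0.59 (exact permutation p = 0.128, adjusted p = 0.454). Spearman's rho was 0.43 (exact permutation p = 0.299, adjusted p = 0.735). For this relation r was 0.35 after subtraction of the group means, 0.21 without TBI 2 and TBI 4, and 0.77 without sham 1 and TBI 1. Grm5 and the choroid plexus score varied in the same direction (rho = 0.74, exact permutation p = 0.0458, adjusted p = 0.647). Pearson's r was 0.59 (exact permutation p = 0.116, adjusted p = 0.454), and without sham 1 and TBI 1 it was 0.69. Between the groups the directions were opposite. Choroid plexus markers were higher in TBI in 9 of 9 tested (median 0.34), where 46.7% of all rows were higher, and the mean of Grm5 was lower. None of these markers was under 0.05 before adjustment. Grm3 with the astrocyte score had r = 0.60 (exact permutation p = 0.116, adjusted p = 0.454; rho = 0.45, exact permutation p = 0.268, adjusted p = 0.708), and without sham 4 and TBI 1 r was 0.45.

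**Figure D3:**
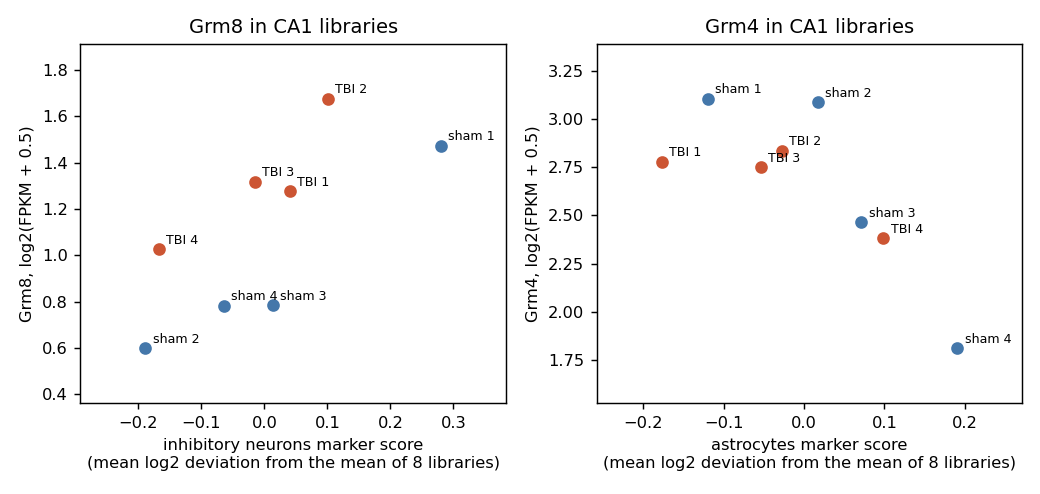
Left, Grm8 as log2(FPKM + 0.5) against the inhibitory neuron marker score; right, Grm4 against the astrocyte marker score; each point is a CA1 library, sham in blue and TBI in red. Grm8 is high in sham 1 and TBI 2, which have the highest inhibitory scores, and Grm4 is lowest in sham 4, which has the highest astrocyte score.

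As a description, the genes whose log2 levels followed each receptor most closely over the 8 CA1 libraries were picked from 10253 tested genes by Pearson's r. All genes of a library share its depth and dissection, and no test was made of these values. Grm8 was followed by the kainate receptor subunit Grik3 (r = 0.98), the opioid peptide precursor Penk (0.97) and the protein kinase A subunit Prkacb (0.97). Grm5 was followed by the kinase Pdpk1 (0.99) and Ddx19b (0.99), and Grm7 by Zbtb11 (0.96), the autophagy kinase Ulk1 (0.93) and Ube4b (0.93). Grm2 was followed by Nup210 (0.95), Grem1 (0.91) and the chemokine Cx3cl1 (0.91), Grm3 by Emc3 (0.97), Ttll12 (0.94) and Olfml2a (0.93), and Grm4 by the kinase Stk39 (0.96), Asnsd1 (0.96) and Fam222a (0.95).

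The genes around the receptors were taken from 7 lists of 134 genes in all, of which 121 were tested in CA1. None of the 121 passed (limma adjusted p = 0.891 to 1.00). Before adjustment 10 of them (8.26%) were under 0.05, against 5.14% of all rows, 9 of these lower in TBI and 1 higher. The groups did not overlap in 3 (2.48%), against 2.88% of all rows. Mean log2 levels, on which the counts of lower and higher genes rest throughout, were lower in TBI in 88 of 121 (72.7%), against 53.3% of all rows. Markers of pyramidal neurons were lower in 10 of 11, those of dentate gyrus and CA3 neurons in 8 of 9 (median -0.22, summed level 340.01 to 429.7 FPKM in sham and 307 to 396 in TBI). Markers of endothelial cells and pericytes were lower in 11 of 11 (median -0.16, summed level 145 to 203 and 140.3 to 151 FPKM), 4 of them under 0.05 before adjustment. No marker of these 2 lists was listed at 0 in every library, and the part of these cells in the signalling lists was not tested.

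On the group I side, 16 of 17 tested genes of Gq signalling had lower mean log2 levels in TBI, where 53.3% of all rows were lower. The median was -0.19 against -0.01 over all rows. Camk2a of this list is also among the pyramidal neuron markers. Before adjustment 3 genes of the list were under 0.05, as were 5.14% of all rows. Protein kinase C beta, Prkcb, was at 93.2 ± 14.1 FPKM in sham and 75.4 ± 6.22 in TBI (log2 -0.30 ± 0.11 SE), and the diacylglycerol kinase Dgkz at 301 ± 32.3 and 258 ± 17.7 (-0.22 ± 0.09). The third was the phospholipase Plcb1, named after its values were seen, at 48.9 ± 5.03 and 42.6 ± 2.33 (-0.19 ± 0.08). Plcb3 was the gene of this list whose groups did not overlap, where 2.88% of all rows did not overlap. The inositol trisphosphate receptor Itpr1, the calcium channel on which this pathway ends, was not tested because the authors' tool did not mark every library as OK. Its values, singled out after they were seen, were 71.6 to 94.8 FPKM in sham and 63.3 to 70.03 in TBI.

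The endocannabinoid genes that act downstream of group I receptors were lower in 6 of 7 (median -0.21), where 53.3% of all rows were lower. Before adjustment 2 of them were under 0.05, as were 5.14% of all rows. The cannabinoid receptor Cnr1 stood at 55.4, 66.9, 67.4 and 60.7 FPKM in sham and at 58.4, 47.6, 54.0 and 50.6 in TBI (log2 -0.25 ± 0.09 SE). The groups overlapped by TBI 1 alone, which lay above sham 1. The lipase Mgll, which breaks down the endocannabinoid 2-arachidonoylglycerol, stood at 83.3 ± 8.19 and 71.8 ± 2.02 FPKM (-0.21 ± 0.07). Both had limma adjusted p = 0.891.

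Among scaffolds and partners 18 of 22 were lower (median -0.07), where 53.3% of all rows were lower. Before adjustment 1 of them (4.55%) was under 0.05, against 5.14% of all rows. This was Homer1, the scaffold that ties Grm5 to the inositol trisphosphate receptor, at 24.4, 26.1, 24.9 and 23.7 FPKM in sham and 21.0, 22.6, 22.3 and 19.5 in TBI. Every TBI library lay below every sham library (log2 -0.21 ± 0.06 SE, limma adjusted p = 0.891), where the groups did not overlap in 2.88% of all rows. The postsynaptic scaffold Shank3 stood at 49.8 ± 6.97 and 42.4 ± 3.60 FPKM (-0.22 ± 0.11), and without sham 1 and TBI 1 its difference was -0.38.

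Genes of Gi/o signalling, the route of group II and III receptors, were nearer to even, with 8 higher and 15 lower of 23 (median -0.02). Of all rows, 46.7% were higher and 53.3% lower. Before adjustment 1 of the 23 (4.35%) was under 0.05, against 5.14% of all rows. This was the adenylyl cyclase Adcy5, which Gi inhibits, and it was higher in TBI. It stood at 27.9, 25.7, 27.3 and 25.3 FPKM in sham and at 29.7, 32.4, 29.1 and 30.6 in TBI (log2 0.19 ± 0.06 SE, limma adjusted p = 0.891). Its groups did not overlap, as was so for 2.88% of all rows. The potassium channel subunit Kcnj3, opened by Gi/o receptors, stood at 56.4 ± 5.09 and 50.1 ± 6.33 FPKM (-0.17 ± 0.10).

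Desensitisation and trafficking genes were higher in 8 cases and lower in 7 (median 0.00), where 53.3% of all rows were lower. None was under 0.05 before adjustment, against 5.14% of all rows. The phosphatase subunit Ppp2ca was at 0.11 ± 0.05 (log2, SE) and the G protein regulator Rgs4 at 0.42 ± 0.32. Single libraries moved Rgs4 to 0.18 (without sham 4), 0.20 (without TBI 2) and 0.63 (without sham 1). Genes of long-term depression were lower in 14 of 20 (median -0.03), where 53.3% of all rows were lower. Before adjustment 1 of them (5.0%), Nptx2, was under 0.05, against 5.14% of all rows. The pentraxin Nptx2 stood at 35.8 ± 4.05 and 30.2 ± 3.15 FPKM (-0.24 ± 0.10), and the kinase Mtor at 24.3 ± 2.15 and 26.8 ± 1.37 (0.14 ± 0.07; 0.09 without sham 3 and 0.23 without sham 1 and TBI 1). Genes that supply or clear glutamate were lower in 12 of 17 (median -0.04), where 53.3% of all rows were lower. Before adjustment 2 of them (11.8%) were under 0.05, against 5.14% of all rows. These were the neuronal transporter Slc1a1 at 41.0 ± 4.68 and 33.4 ± 4.83 FPKM (-0.30 ± 0.12) and the glutamine transporter Slc38a3 at 28.1 ± 1.33 and 25.7 ± 1.17 (-0.13 ± 0.06).

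**Figure D4:**
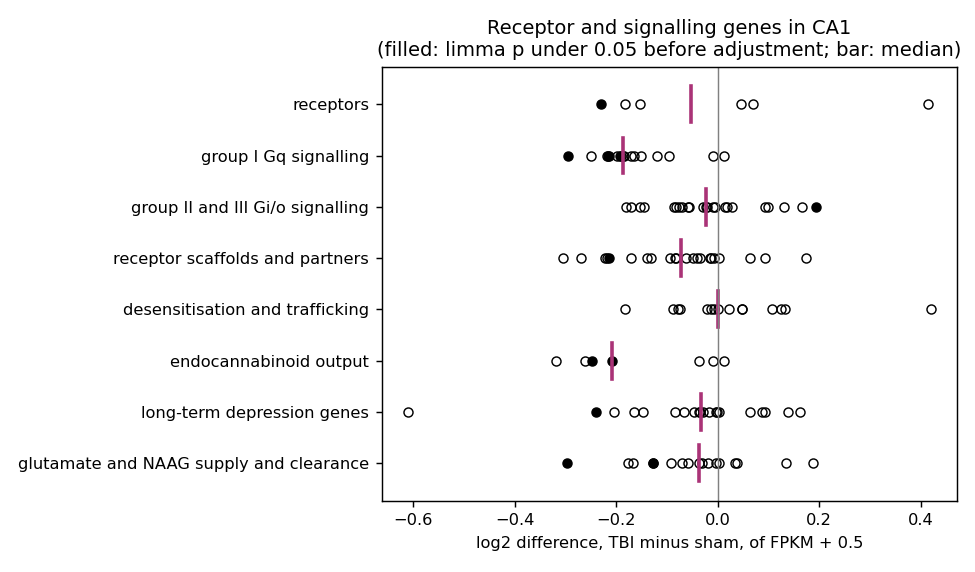
Log2 differences (TBI minus sham, FPKM + 0.5) in CA1 of the receptor genes and of the tested genes of 7 signalling lists; each circle is a gene, filled where limma's value was under 0.05 before adjustment, and the purple bar is the list's median. The medians of Gq signalling (-0.19) and endocannabinoid output (-0.21) lie farthest below 0, and no gene passed after adjustment.

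In white blood cells the receptor transcripts were close to absent. None of the 6 reached a mean of 1 FPKM, so none entered the test. The highest value of any receptor in any WBC library was 0.189 FPKM, for Grm5 in TBI 3, where the lowest CA1 library of Grm5 had 29.0. The tables of the tissues were normalized separately, so these levels are set side by side without a test. With no filter on low values limma gave no call among the 6 (adjusted p = 0.674 to 0.932), and none was under 0.05 before adjustment. Among the rows that passed the filter, 0% passed the test and 20.3% were under 0.05 before adjustment (12.5% lower and 7.82% higher).

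Grm3 was above 0 in 7 of the 8 WBC libraries, Grm5 in 6, Grm4 and Grm7 in 4 each, Grm2 in 3 and Grm8 in 1. Sham 2 had all 6 receptors listed at 0. Grm5 stood at 0.0688, 0, 0.0444 and 0.0404 FPKM in sham and at 0.0127, 0, 0.189 and 0.0495 in TBI. Grm3 stood at 0.0263, 0, 0.104 and 0.0236 FPKM in sham and at 0.0143, 0.0197, 0.133 and 0.0193 in TBI. TBI 3 was the highest library for both genes, but not for the other receptors. Grm2 and Grm4 were highest in sham 1, Grm7 in TBI 2 and Grm8 in sham 4.

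Some other brain transcripts were also highest in that WBC library. Of 52 markers of neurons, astrocytes and oligodendrocyte lineage cells with a value above 0 in WBC, 25 had their highest value in TBI 3 and 0 to 7 in each other library. The vesicular glutamate transporter Slc17a7 stood at 3.12 FPKM in TBI 3 and at 0.676 to 1.23 in the other 7 libraries. The astrocyte transporter Slc1a2 stood at 1.67 FPKM there and at 0.269 to 0.602 elsewhere, and Aqp4 at 0.698 against 0.0752 to 0.210. Slc17a7, Slc1a2 and Aqp4 stood at 658 to 848, 507 to 744 and 84.2 to 135 FPKM in CA1. Whether the receptor values of TBI 3 share a source with these markers was not tested.

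**Figure D5:**
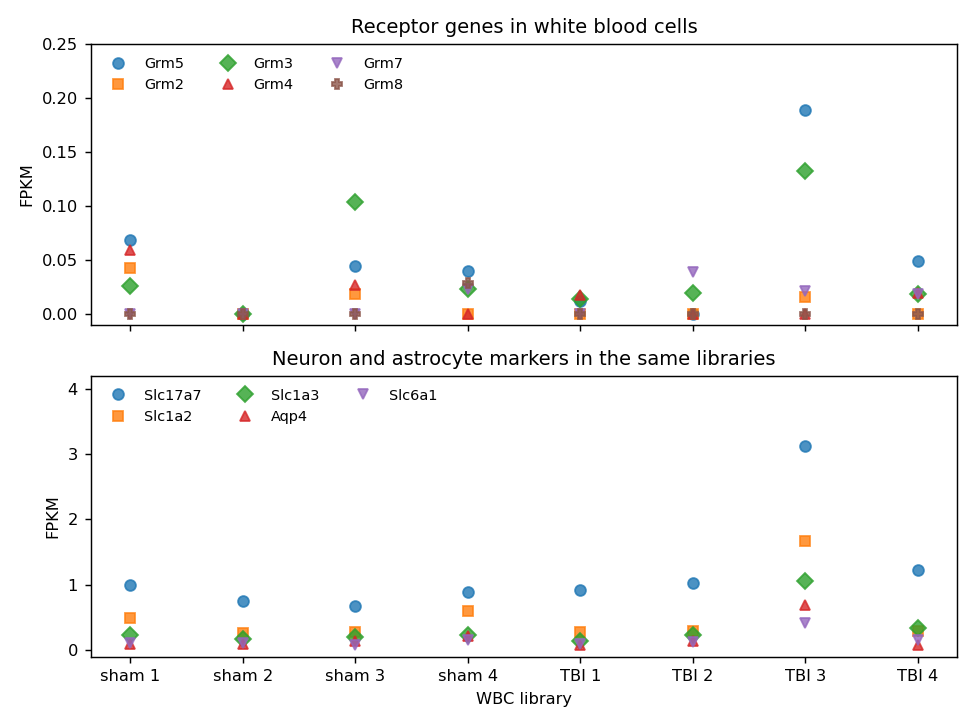
FPKM in the 8 WBC libraries (x axis) of the 6 receptor genes (top) and of 5 markers of neurons and astrocytes (bottom); each symbol is a gene in a library. Grm5 (0.189), Grm3 (0.133) and all 5 markers, which were picked for the figure, are highest in TBI 3. Of the 52 brain markers above 0 in WBC, 25 are highest there. In sham 2 every receptor is listed at 0.

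Of the signalling genes around the receptors, 81 were tested in WBC, and none passed (limma adjusted p = 0.127 to 0.999). Before adjustment 20 of them (24.7%) were under 0.05, 15 lower and 5 higher, against 20.3% of all rows. The groups did not overlap in 18 (22.2%), against 14.2% of all rows (8.63% lower and 5.61% higher). Mean log2 levels were lower in 47 and higher in 34, where 50.4% of all rows were lower and 49.6% higher. Erythroid markers, Alas2 and Slc4a1 the highest among them, were lower in 10 of 10 tested (median -1.01), 8 of them under 0.05 before adjustment. Their summed level was 11801 to 18665 FPKM in sham and 4774 to 11636 in TBI. Platelet markers, led by Pf4 and Treml1, were lower in 6 of 6 (median -0.93), 4 of them under 0.05 before adjustment, with summed levels of 6784 to 9274 and 2106 to 6208. Natural killer cell markers were higher in 7 of 7 (median 0.46), 5 of them under 0.05 before adjustment, with summed levels of 204 to 260 and 234 to 417 FPKM. B cell markers were lower in 7 of 7 (median -0.16), none under 0.05, with summed levels of 772 to 995 and 511 to 929. No marker of these 4 lists was listed at 0 in every library, and the part of these cells in the values that follow was not tested.

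The glutamate and amino acid transport subunit Slc3a2 stood at 214 ± 43.6 FPKM in sham WBC and 106 ± 28.3 in TBI (log2 -1.03 ± 0.23 SE; limma adjusted p = 0.127), with no overlap. Glutamine synthetase, Glul, stood at 933 ± 167 and 591 ± 183 FPKM (-0.71 ± 0.27), also with no overlap. Among G proteins, the Gi family member Gnaz stood at 37.4 ± 5.53 and 22.3 ± 5.65 FPKM (-0.76 ± 0.19), Gnaq at 35.4 ± 5.71 and 22.4 ± 6.26 (-0.68 ± 0.23), and Gna11 at 4.26 ± 0.450 and 5.55 ± 0.518 (0.34 ± 0.10). These 3 also had groups that did not overlap, the 2 Gq family members in opposite directions.

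In the other lists the values in WBC were as follows. The protein kinase A subunit Prkar2b was at 73.6 ± 10.9 FPKM in sham and 46.2 ± 12.7 in TBI, and the scaffold Sdcbp at 446 ± 55.2 and 275 ± 71.5. Filamin A, Flna, stood at 268 ± 18.9 and 205 ± 28.4 FPKM (log2 -0.39 ± 0.12 SE), a difference that quantile normalization brought to -0.0066. The same scaling moved Sdcbp from -0.73 to -0.29, Glul from -0.71 to -0.31 and Rgs14 from 0.15 to 0.29. Of the desensitisation genes, the G protein regulator Rgs14 stood at 33.2 ± 0.683 and 37.0 ± 1.57 FPKM and the receptor kinase Grk5 at 41.4 ± 7.08 and 27.1 ± 10.04. The growth regulators Tsc1 (12.04 ± 1.81 and 8.67 ± 1.64 FPKM) and Eef2k (28.8 ± 7.13 and 17.02 ± 6.71) had lower means in TBI, as had Mgll (13.7 ± 4.14 and 8.77 ± 3.75) and Napepld (1.39 ± 0.281 and 0.983 ± 0.306) of the endocannabinoid list. Limma adjusted p was 0.144 to 0.359 for these 9 genes. Without TBI 1, the library apart from the others, log2 differences moved from -0.68 to -0.38 for Grk5, from -0.69 to -0.36 for Mgll, from -0.80 to -0.53 for Eef2k, from -0.71 to -0.44 for Glul and from -0.68 to -0.45 for Gnaq. Without sham 1 and TBI 1, Prkar2b moved from -0.70 to -0.38 and Sdcbp from -0.73 to -0.49, and without TBI 4 Napepld moved from -0.36 to -0.23.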

How the data were processed

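Per the file headers the authors deposited FPKM, in 1 table per tissue with a status for each value. The submitters' processing notes name TopHat, TopHat2, Bowtie, Bowtie2, Cufflinks, Cuffdiff and the build rn5, without versions or roles. No source used here says how the authors scaled for library size, and depth in fragments is unknown, so no counting interval is given. No sequences or positions are printed, because the reference at hand is of another build.

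From these values, log2(FPKM + 0.5) was tested with limma 3.58.1 (R 4.3.3; trend, 2-sided, Benjamini-Hochberg, threshold 0.05) over rows with a mean of at least 1 FPKM and every status OK: 14637 rows in CA1 and 13413 in WBC. In simulated data the fit recovered 16% of changes of 0.3 log2, 42% of 0.5 and 82% of 1.0 in CA1. In WBC it recovered 6%, 28% and 76%. Changes as small as the receptor differences in CA1 could therefore be missed. The simulation drew independent normal noise for each row, without shifts shared by the genes of a library, so recovery in the real data may be lower. Relations used exact permutation of libraries (scipy 1.17.1 with numpy 2.4.6 under Python 3.11.15), tables pandas 2.3.3 and plots matplotlib 3.10.9. The members and lists were chosen with earlier results of these data known. From each signalling list, any gene that passed, otherwise the 2 with the smallest p per tissue, are named, with the 3 genes most like each receptor (1 is not reported here) and the 2 highest markers of a list where used. Other markers, Plcb1, Plcb3 and Itpr1 were named after their values were seen. Equal replicate numbers were not taken as pairs. Alternatives were other pseudocounts, filters, scalings and variance models, a replicate block and leaving out libraries.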

Additional observations from a re-analysis of the deposited data

Results flagged for a closer look

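In 5 of the 23 groups of 4 libraries with any spread, 1 library lay apart from the other 3 by a gap above Dixon's 95% critical value for a group of that size, where chance flags about 1 group in 20. In CA1 this was Grm8 in sham 1, at 2.28 FPKM against 1.22 in the next sham library. In WBC it was Grm3 in TBI 3 (0.133 FPKM against 0.0197) and Grm2 in TBI 3 (0.0161, the others listed at 0). It was also Grm7 in sham 4 (0.0233) and Grm8 in sham 4 (0.0289), with the other sham libraries listed at 0. Groups in which most libraries are listed at 0 meet this rule whenever 1 library is not.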

How the results depend on the processing

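In CA1, 0 of 6 receptor genes passed limma under every alternative run, and 115 of 119 alternative log2 differences kept their direction. The exceptions were Grm2 with sample weights (0.028) and without sham 1 and TBI 1 (0.069), and, without sham 4, Grm4 (-0.20) and Grm7 (-0.0011). With 1 library left out the differences ran from -0.28 to -0.16 for Grm3, -0.22 to -0.09 for Grm5, -0.38 to -0.04 for Grm2, 0.30 to 0.60 for Grm8, -0.20 to 0.23 for Grm4 and -0.0011 to 0.083 for Grm7. A minimum mean of 5 FPKM leaves Grm8 out. The 28 signalling genes kept their direction in all 558 alternative values, and none passed in the main fit or in any alternative. They were picked for the smallest p in the main fit, so their kept direction is largely set by that choice. With the replicate number as a block 0 of 6 passed and Grm3 was at -0.23 (adjusted p = 0.755). Libraries of equal number deviated together with r = 0.21, 0.023, 0.051 and 0.24 in CA1, and those of unequal number with r = -0.16 to 0.112. The numbers were not taken as pairs in the main fit, and whether they mark a shared factor was not tested. Over all CA1 rows, 752 were under 0.05 before adjustment, 1256 with no filter, 450 with a minimum of 5 FPKM, 2022 with sample weights, 1999 without sham 1 and TBI 1, and 497 (without sham 3) to 1802 (without sham 1) with 1 library left out. Calls over all CA1 rows were 1, and 2 with quantile normalization, 3 with sample weights or a threshold of 0.1, 2 without sham 1 and TBI 1, and 1 to 2 with 1 library left out. In WBC only the fit with no filter could include the receptors, and it called 0 of 6. Of the 45 relations 0 passed after subtraction of group means or without the 2 farthest libraries. The causes were not tested.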
